A study of Saccharomyces cerevisiae with 7 samples.

Results

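Convergent genes are neighbours that are transcribed towards each other, so the DNA between their stop codons holds the 3′ ends of both transcripts and, as a rule, no promoter of either gene. RNA polymerase II (RNAPII) slows down and is released in such regions after the transcript has been cleaved at its poly(A) site, and polymerases from both sides can enter the same stretch of DNA. The nuclear exosome, of which Rrp6 is an exonuclease, degrades noncoding RNAs and unspliced pre-mRNAs and takes part in the processing of small nuclear and nucleolar RNAs. Rtt109 acetylates lysine 56 of newly made histone H3, a mark that favours the exchange of nucleosomes.

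The regions described here are 1419 convergent gaps of budding yeast, out of 5604 gaps of any orientation. A gap was the stretch between neighbouring protein-coding open reading frames (ORFs) of the R64 annotation that do not overlap, with the left ORF on the W strand and the right ORF on the C strand, as given by the letter in the systematic names. It was kept when at least 1 window of the RNAPII tracks was centred in it. The annotation holds 1513 such gaps, of which 57 lie on chromosome IX, which was not analysed here, and 37 others had no window. No ratio was used for this choice, but it depends on which windows the tracks list, and the filter behind that is not stated. The longest of the 37 gaps without a window had 1063 bp. The 1419 gaps had a median length of 235 bp (middle 50% from 146 to 357 bp, range 18 to 8042 bp) and a median of 4 windows, and 159 of them had only 1 window. The gaps used for comparison were 2720 tandem gaps, which lie between genes transcribed in the same direction and hold the end of one gene and the promoter of the next, and 1465 divergent gaps, which hold promoters.

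RNAPII was measured by chromatin immunoprecipitation and sequencing (ChIP-seq) in asynchronous log-phase cultures in rich glucose medium, in the W303 background. The genotypes were *rtt109Δ*, which lacks the H3 acetyltransferase, *rrp6Δ*, which lacks the exosome nuclease, and wild-type (WT). Chromatin was crosslinked with formaldehyde and cut with micrococcal nuclease, and the antibody was raised against the C-terminal domain of the largest RNAPII subunit. Each genotype had 2 immunoprecipitated (IP) libraries per the labels, and 1 input library of W303 cells served all of them. Every value is an IP/input ratio of a 100 bp window, with windows starting each 50 bp, in 1 track per genotype that already combines the replicates, with a median window of 1 in each track. No replicate error could therefore be computed, and all differences between genotypes below are differences between single tracks, without a test or p-value. The read depth behind the ratios is unknown. Over all windows the *rtt109Δ* track was narrower, with a standard deviation of 0.661, against 0.904 in *rrp6Δ* and 0.897 in WT. Its 10th percentile was 0.6, against 0.499 in *rrp6Δ* and 0.539 in WT. The part of this narrower spread in the differences below was not tested. Of the windows that the 50 bp grid would place in these gaps, 10.96% were not listed in the tracks, against 4.12% in tandem gaps and 1.93% in divergent gaps, and 508 convergent gaps (35.8%) lacked at least 1 window. Their part in the ratios was not tested.

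Convergent gaps had the highest RNAPII ratios of the 3 kinds of gap, in all 3 tracks. The median gap had a ratio of 1.98 in *rtt109Δ* (middle 50% of gaps from 1.54 to 2.54), 2.59 in *rrp6Δ* (1.92 to 3.43) and 2.56 in WT (1.94 to 3.36). Tandem gaps had medians of 1.56 in *rtt109Δ*, 1.66 in *rrp6Δ* and 1.74 in WT, and divergent gaps had 1.31 in *rtt109Δ*, 1.28 in *rrp6Δ* and 1.34 in WT. ORFs had medians of 0.942 in *rtt109Δ*, 0.983 in *rrp6Δ* and 0.974 in WT. In WT, 1396 of 1419 convergent gaps (98.4%) were above the median window of 1 and 1036 (73.0%) were above 2. A ratio above 2 was found in 37.1% of tandem gaps, 13.9% of divergent gaps and 1.28% of ORFs in WT. Convergent gaps held 3.90% of all windows but 28.7% of the highest 1% of windows in *rtt109Δ*, 34.6% of these windows in *rrp6Δ* and 32.7% in WT. Tandem gaps, with 13.3% of all windows, held 48.5% of the highest 1% in *rtt109Δ*, 43.1% in *rrp6Δ* and 45.3% in WT. Divergent gaps, with 8.76% of all windows, held 14.8%, 11.9% and 13.0% in the same order.

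**Figure D1:**
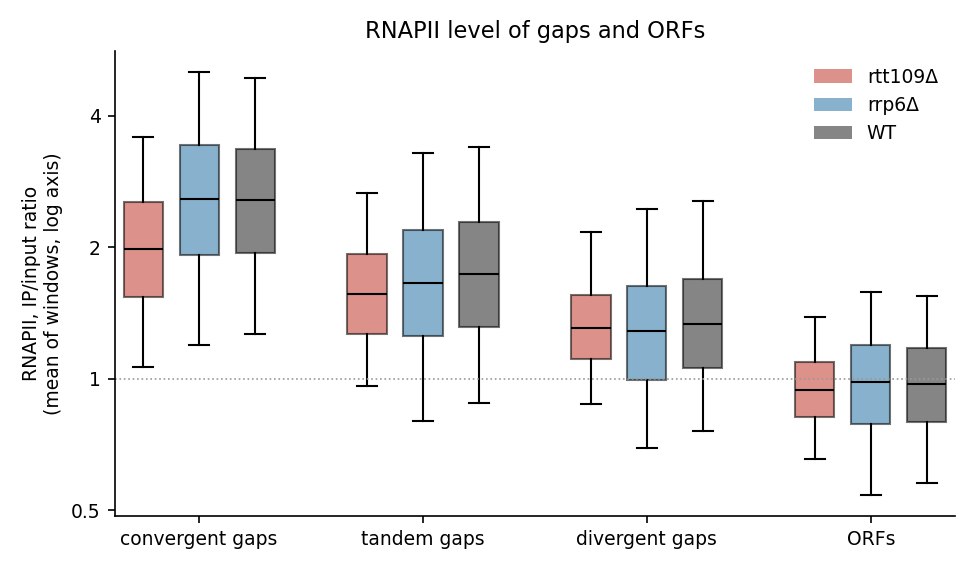
IP/input ratio of RNAPII (log axis) for convergent, tandem and divergent gaps and for ORFs in the *rtt109Δ*, *rrp6Δ* and WT tracks. Boxes span the middle 50% of regions with the median as a line, and whiskers run from the 5th to the 95th percentile over regions, not over replicates. Convergent gaps have the highest medians in each track (1.98, 2.59 and 2.56), and the *rtt109Δ* median lies furthest below the WT median there.

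The signal changed at the stop codon. More than 250 bp inside the flanking ORFs, the mean ratio was 1.01 in *rtt109Δ*, 1.13 in *rrp6Δ* and 1.06 in WT. It was highest in the bin centred 75 bp past the stop codon, with means of 2.29 in *rtt109Δ*, 3.10 in *rrp6Δ* and 3.03 in WT. Beyond this peak it stayed above the ORF level in long gaps: between 950 and 1000 bp past the stop codon, the mean of 153 windows was 1.76 in *rtt109Δ*, 2.10 in *rrp6Δ* and 2.14 in WT. Past the stop codons beside tandem gaps the peak lay in the same bin but was lower, with 1.98 in *rtt109Δ*, 2.33 in *rrp6Δ* and 2.41 in WT.

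**Figure D2:**
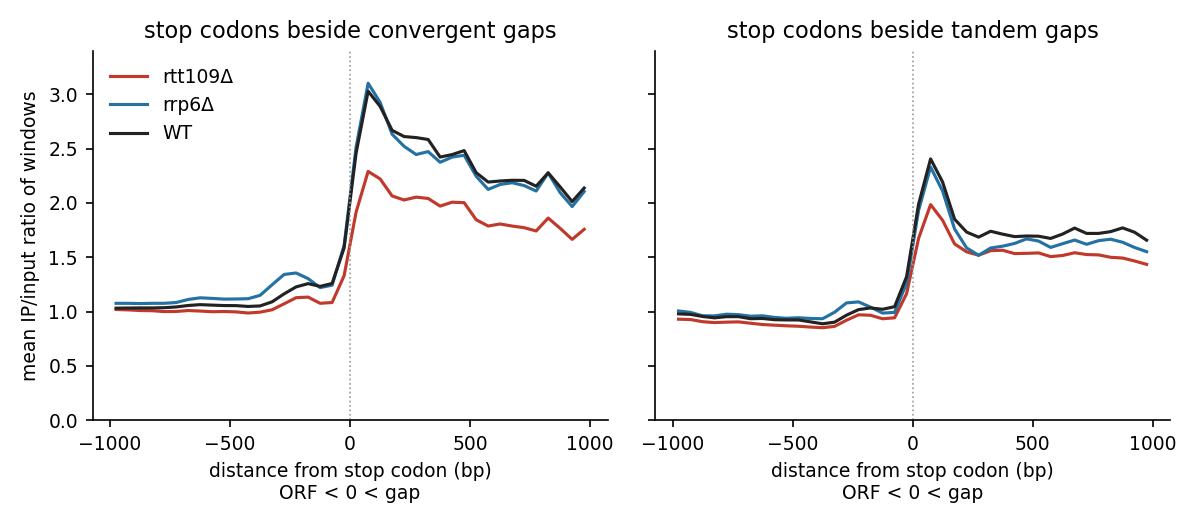
Mean IP/input ratio of windows by distance from the stop codon in bp, with the ORF on the left of 0 and the gap on its right, for genes beside convergent gaps (left panel) and tandem gaps (right panel). Windows past the far end of a gap were left out, so the number of gaps falls with distance. The mean peaks 75 bp past the stop codon in each track, at 2.29, 3.10 and 3.03 beside convergent gaps and at 1.98, 2.33 and 2.41 beside tandem gaps (*rtt109Δ*, *rrp6Δ*, WT).

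Each gap was then set against the ends of its own genes, taken as the last 300 bp of both flanking ORFs together. The median ratio of these ends was 1.10 in *rtt109Δ*, 1.28 in *rrp6Δ* and 1.23 in WT. The gap was above its gene ends in 1364 of 1419 pairs (96.1%) in *rtt109Δ*, 1373 (96.8%) in *rrp6Δ* and 1381 (97.3%) in WT. The median log2 ratio of gap to gene ends was 0.82 in *rtt109Δ*, 1.01 in *rrp6Δ* and 1.04 in WT, or 1.76-fold, 2.01-fold and 2.06-fold. The step from gene to gap was thus present in all 3 tracks and smallest in *rtt109Δ*, the track with the narrowest spread over all windows. It was not smallest there when the 10th percentile of windows was subtracted from each track as background. The step was then 1.45 in *rtt109Δ*, 1.42 in *rrp6Δ* and 1.56 in WT on the log2 scale.

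The level between the genes followed the level over the genes only loosely. ORFs were ranked by their WT ratio into low, middle and high classes of equal size, with limits at 0.860 and 1.10. Gaps between a pair of low ORFs (101 gaps) had a median of 1.73 in *rtt109Δ*, 1.83 in *rrp6Δ* and 1.94 in WT, while gaps between a pair of high ORFs (251 gaps) had 2.12 in *rtt109Δ*, 3.07 in *rrp6Δ* and 2.91 in WT. Across 1417 gaps with values for both ORFs, the log2 WT ratio of the gap was weakly related to that of its ORFs (Pearson's r = 0.298, Spearman's rho = 0.284). This is a description across regions that share a library, an input and neighbouring windows. The median gap between ORFs of the low class was thus still above the median ORF of the genome, which had 0.974 in WT. The classes rest on the ratio alone. The median of 133 ribosomal protein ORFs, at 0.820 in WT, was also within the low class, and gaps beside such genes were not set apart here. With the class of the ORFs the difference between *rtt109Δ* and WT also changed: the median log2 ratio was -0.064 between low ORFs, with 21.8% of gaps over 1.3-fold lower, and -0.48 between high ORFs, with 65.3% lower.

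Single gaps were taken by a rule that asked for at least 4 windows, a gene symbol for both genes and no annotated noncoding gene in between, which 601 gaps met. The highest WT ratio among them was found between SMC6, a subunit of the Smc5/6 complex, and IKI3, a subunit of the Elongator complex. This gap (chromosome XII, positions 888633 to 888850) had a ratio of 4.92 in *rtt109Δ*, 6.98 in *rrp6Δ* and 6.46 in WT, against 1.53 over its gene ends in WT. It was followed by the gap between MRPL23, a mitochondrial ribosomal protein, and RPB2, the second-largest subunit of RNAPII itself (chromosome XV, 612491 to 612996), with 3.43 in *rtt109Δ*, 5.57 in *rrp6Δ* and 5.93 in WT. The gap between ATG9, a membrane protein of autophagy, and NOP14, a factor of small ribosomal subunit assembly (chromosome IV, 187919 to 188153), had 3.26 in *rtt109Δ*, 5.78 in *rrp6Δ* and 5.82 in WT. These gaps were lower in *rtt109Δ* than in both other tracks, but a choice by high WT ratio favours this against WT. The same order held for CLC1-PEX35 (3.13 in *rtt109Δ*, 5.01 in *rrp6Δ*, 5.39 in WT) and IDH2-SIA1 (2.88 in *rtt109Δ*, 5.10 in *rrp6Δ*, 5.36 in WT), where CLC1 encodes clathrin light chain and IDH2 a subunit of isocitrate dehydrogenase.

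A few convergent gaps had ratios close to those of ORFs. The lowest under the rule lay between MET31, a transcription factor of sulfur metabolism, and EGD1, a subunit of the nascent polypeptide-associated complex. This gap had 0.865 in *rtt109Δ*, 0.974 in *rrp6Δ* and 0.961 in WT. Its 4 windows ended at position 481300 while the gap ends at 481427, so the part next to EGD1 was not read. HED1-DAD1, a meiotic recombination regulator beside a kinetochore protein, had 1.53 in *rtt109Δ*, 1.18 in *rrp6Δ* and 1.13 in WT. VPS24-NFU1, an ESCRT-III subunit beside a mitochondrial iron-sulfur protein, had 0.841 in *rtt109Δ*, 0.969 in *rrp6Δ* and 1.16 in WT. CDC50-OCA4, of which CDC50 encodes a subunit of a lipid flippase, had 0.977 in *rtt109Δ*, 1.47 in *rrp6Δ* and 1.17 in WT, and DDR48-PAI3, of which PAI3 encodes an inhibitor of a vacuolar protease, had 1.42 in *rtt109Δ*, 1.18 in *rrp6Δ* and 1.18 in WT. Among these low gaps the *rtt109Δ* track was not the lowest throughout: HED1-DAD1 and DDR48-PAI3 were higher in *rtt109Δ* (log2 ratios to WT of 0.44 and 0.26), and the other 3 were lower.

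Whether loss of the acetyltransferase alters RNAPII occupancy was the question behind the *rtt109Δ* track. Convergent gaps were mostly lower in *rtt109Δ*. With a limit of 1.3-fold, 726 of 1419 gaps (51.2%) were lower and 24 (1.69%) were higher in *rtt109Δ*. Over all 5604 gaps, 27.5% were lower and 4.51% higher by the same limit, and among tandem gaps alone 23.8% were lower and 4.78% higher. Convergent gaps had a median log2(*rtt109Δ*/WT) of -0.39, with the middle 50% of gaps between -0.60 and -0.15, against -0.15 in tandem gaps and -0.020 in divergent gaps. The order-statistic 95% interval of the convergent median, which takes gaps as independent and holds no replicate error, was -0.42 to -0.37. In all, 1212 gaps (85.4%) were below 0. When both tracks were divided by their median gap, which raises each log2 ratio of *rtt109Δ* by 0.18, 411 convergent gaps were lower and 74 higher. When *rtt109Δ* gaps were given the WT distribution of all gaps by rank, 311 were lower and 157 higher and the median was -0.12.

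Against *rrp6Δ*, 747 convergent gaps (52.6%) were lower in *rtt109Δ* and 38 (2.68%) were higher, where all gaps had 23.5% lower and 9.21% higher. The median log2 ratio of *rtt109Δ* to *rrp6Δ* was -0.41 in convergent gaps and -0.092 in tandem gaps. Both comparisons use the same *rtt109Δ* track and the same input, and the *rrp6Δ* and WT levels of the gaps were closely related (Pearson's r = 0.942 over 1417 gaps), so the second is no independent check of the first.

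The genes on both sides differed less between *rtt109Δ* and WT than the DNA between them. Gene ends also had lower ratios than gaps (medians of 1.23 and 2.56 in WT), and gaps and gene ends were not matched on level. Over the last 300 bp of the flanking ORFs the median log2(*rtt109Δ*/WT) was -0.18, and 296 of the 1419 pairs of gene ends (20.9%) were over 1.3-fold lower. In 1173 gaps (82.7%) the gap was further down than its own gene ends, by a median of 0.21 on the log2 scale. Of the 726 gaps called lower, 266 (36.6%) also had gene ends called lower and 460 (63.4%) had not. Averaged over whole flanking ORFs the median was -0.053. Across 1417 gaps, gaps with a lower log2 ratio lay beside ORFs with a lower log2 ratio (Pearson's r = 0.654, Spearman's rho = 0.603), a description in which both axes share the tracks and the input. In gaps with at least 4 windows the difference was alike on both sides of the gap centre: the median was -0.34 on the left and -0.32 on the right, and 569 of 793 such gaps (71.8%) were below WT on both sides.

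The contrast in medians with tandem gaps was much smaller at equal RNAPII level. Convergent and tandem gaps were divided together into 10 groups by their WT ratio. In the lowest group the median log2(*rtt109Δ*/WT) was 0.19 in 35 convergent gaps and 0.20 in 379 tandem gaps. In the highest group, above 3.51 in WT, it was -0.59 in 301 convergent gaps and -0.60 in 113 tandem gaps. Convergent gaps were lower than tandem gaps in 8 of the 10 groups, and the mean difference, weighted by the number of convergent gaps, was -0.029, against -0.24 without the groups. With the same weights, 51.2% of convergent and 45.6% of tandem gaps were over 1.3-fold lower. These shares differed more in lower groups. They were 22.9% of convergent and 0.792% of tandem gaps in the lowest group, where 25.7% and 19.8% were higher. In the sixth group 46.7% and 28.9% were lower, and in the highest 81.1% and 82.3%. The largest differences in median between the 2 kinds of gap lay in the second group (-0.095 in convergent and 0.039 in tandem gaps) and the sixth group (-0.37 in convergent and -0.25 in tandem gaps). Because WT is part of both the grouping and the log2 ratio, a falling trend is in part built in. With groups set by the *rrp6Δ* ratio in place of WT, the weighted difference was -0.051.

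**Figure D3:**
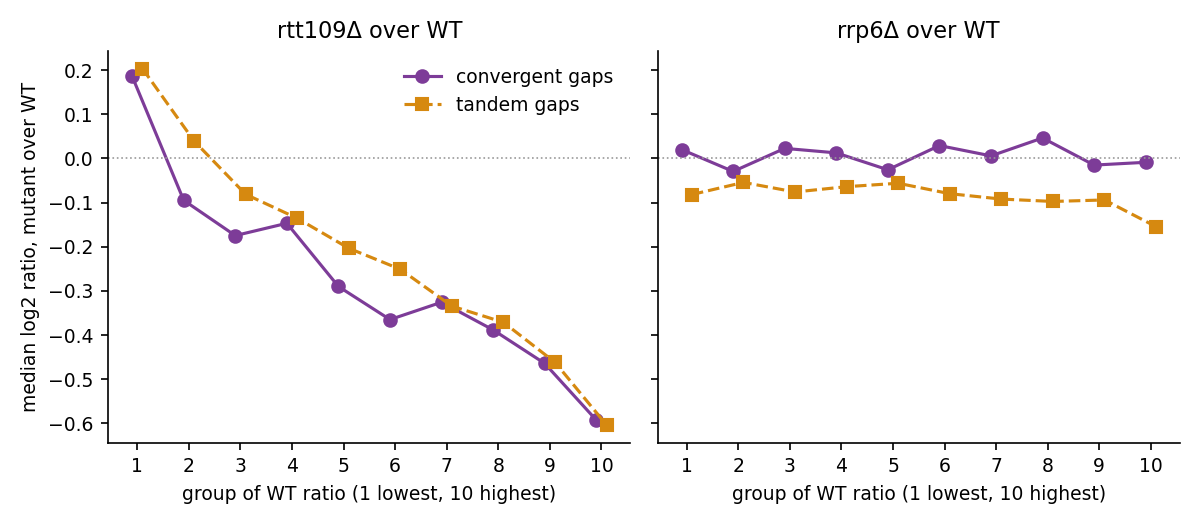
Median log2 ratio of *rtt109Δ* to WT (left) and of *rrp6Δ* to WT (right) in 10 groups of gaps ordered by WT ratio, for convergent gaps (circles) and tandem gaps (squares). In *rtt109Δ* the medians of both kinds of gap descend, to -0.59 and -0.60 in the highest group. In *rrp6Δ* the convergent gaps lie above the tandem gaps in each of the 10 groups.

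The gaps with the largest differences in *rtt109Δ* were named among 363 that met the rule and reached the median convergent gap in *rtt109Δ* or in WT. The largest fall lay between CTS2, which encodes a predicted chitinase, and VPS74, which retains glycosyltransferases in the Golgi (chromosome IV, positions 1220949 to 1221111). Its ratio was 2.21 in *rtt109Δ*, 4.67 in *rrp6Δ* and 5.17 in WT, a log2 ratio of *rtt109Δ* to WT of -1.22. Its 4 windows lay between 1.69 and 3.30 in *rtt109Δ* and between 3.05 and 9.05 in WT, so that the windows of the 2 tracks overlapped only at their margins. TOM20-GCD2, a mitochondrial import receptor beside a subunit of translation factor eIF2B, had 1.87 in *rtt109Δ*, 3.52 in *rrp6Δ* and 4.14 in WT (log2 ratio -1.14). NOP16-PMI40, a ribosome assembly factor beside mannose-6-phosphate isomerase, had 1.97 in *rtt109Δ*, 4.73 in *rrp6Δ* and 4.33 in WT (-1.14). FIT2-FIT3, a pair of related cell wall proteins of iron uptake, had 1.49 in *rtt109Δ*, 2.86 in *rrp6Δ* and 3.27 in WT (-1.13), and SPO73-SAP1, beside a gene needed for sporulation, had 1.39 in *rtt109Δ*, 2.78 in *rrp6Δ* and 3.01 in WT (-1.11). In all 5 gaps, picked by a low ratio of *rtt109Δ* to WT, the *rtt109Δ* ratio was the lowest. It was still above 1, the median window.

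The 5 highest log2 ratios in *rtt109Δ* among the same 363 gaps lay between 0.34 and 0.49, and 4 of them passed the 1.3-fold limit, which is 0.38 on the log2 scale. BLI1-FBA1 (chromosome XI, positions 326113 to 326407), next to the gene for the glycolytic enzyme aldolase, had a ratio of 3.27 in *rtt109Δ*, 2.05 in *rrp6Δ* and 2.32 in WT, a log2 ratio of 0.49. HIP1-TDH3, next to the main gene for glyceraldehyde-3-phosphate dehydrogenase (chromosome VII, 882232 to 882811), had 3.52 in *rtt109Δ*, 2.28 in *rrp6Δ* and 2.79 in WT, with a log2 ratio of 0.34 that does not pass the limit and was 0.20 with the median over windows. The FBA1 and TDH3 ORFs also had higher ratios in *rtt109Δ*: FBA1 had 1.08 in *rtt109Δ* and 0.613 in WT, and TDH3 had 1.05 in *rtt109Δ* and 0.702 in WT, a value that is uncertain because TDH3 has nearly identical copies. RPL3-YNG1, a ribosomal protein beside a subunit of the NuA3 histone acetyltransferase complex, had 2.57 in *rtt109Δ*, 1.99 in *rrp6Δ* and 1.84 in WT (0.49, but 0.37 and under the limit with the median over windows). AHP1-CCW12, a peroxiredoxin beside a major cell wall protein, had 3.91 in *rtt109Δ*, 2.32 in *rrp6Δ* and 2.93 in WT (0.42, but 0.37 with windows wholly inside the gap and 0.36 with a pseudocount, both under the limit). UTH1-SHB17, of which SHB17 encodes a bisphosphatase that makes precursors of ribose, had 3.05 in *rtt109Δ*, 2.11 in *rrp6Δ* and 2.22 in WT (0.46). This last value was under the limit at 0.29 with the median over windows and at 0.26 with windows wholly inside the gap. In these 5 gaps, picked by a high ratio of *rtt109Δ* to WT, *rtt109Δ* had the highest ratio of the 3 tracks.

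**Figure D4:**
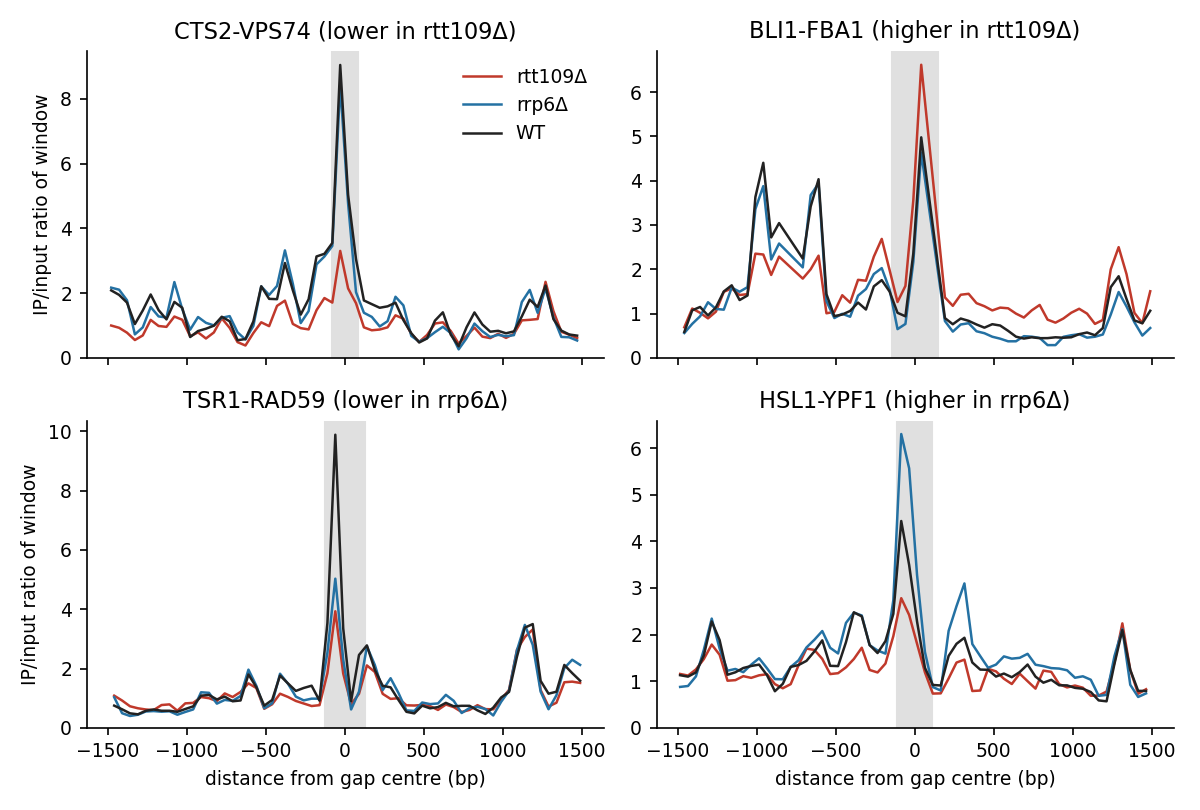
IP/input ratio of single windows by distance from the gap centre in bp for 4 named gaps, with the gap shaded and the *rtt109Δ*, *rrp6Δ* and WT tracks as lines. In CTS2-VPS74 the *rtt109Δ* windows in the gap reach 3.30 where WT reaches 9.05, and in BLI1-FBA1 *rtt109Δ* reaches 6.62 where WT reaches 4.98. No BLI1-FBA1 window is listed between those centred 40.5 and 190.5 bp right of the gap centre, and the lines run straight across. In TSR1-RAD59 *rrp6Δ* reaches 5.03 where WT reaches 9.89, and in HSL1-YPF1 *rrp6Δ* reaches 6.30 where WT reaches 4.44.

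Genes for ribosomal proteins, among the most transcribed in growing yeast, flanked 65 convergent gaps. Here the median ratio was 2.05 in *rtt109Δ*, 2.11 in *rrp6Δ* and 2.16 in WT. The median log2(*rtt109Δ*/WT) was 0.020 (middle 50% from -0.18 to 0.18), against -0.41 in the 1354 other convergent gaps. Of the 65 gaps, 5 were over 1.3-fold lower and 2 were higher, where 721 of the others (53.2%) were lower and 22 (1.62%) were higher. Compared with other convergent gaps in the same group of WT ratio, gaps beside ribosomal protein genes had log2 ratios that were higher by 0.33 (weighted mean), and the sign was the same in all 9 groups that held such gaps. The gene ends moved the same way: over the last 300 bp of the flanking ORFs the median log2 ratio was 0.23 beside ribosomal protein genes and -0.19 at the others. Over 133 ribosomal protein ORFs of the genome the median ratio was 1.04 in *rtt109Δ*, 0.767 in *rrp6Δ* and 0.820 in WT. The WT value lies below the 0.974 of the median ORF. Many of these ORFs have nearly identical copies, which makes their values uncertain. The ORFs of FBA1 (0.613) and CCW12 (0.714), which encode no ribosomal protein, also lay below the median ORF in WT. FBA1 and CCW12 were picked by their gaps, and other highly transcribed ORFs were not examined as a set. The reason for these low WT ratios was not tested.

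Among gaps beside ribosomal protein genes the highest log2 ratio of *rtt109Δ* to WT was found at RPS31-UPS2 (0.51), with 3.68 in *rtt109Δ*, 3.20 in *rrp6Δ* and 2.58 in WT, followed by RPL3-YNG1 (0.49). RPS31 encodes a small-subunit protein made as a fusion with ubiquitin, and UPS2 a mitochondrial lipid transfer protein. The lowest were MGM101-RPS4A (-0.60), with 1.49 in *rtt109Δ*, 1.60 in *rrp6Δ* and 2.25 in WT, and RPS17A-NSE5 (-0.55), with 1.38 in *rtt109Δ*, 1.59 in *rrp6Δ* and 2.03 in WT from only 2 windows. At MGM101-RPS4A and RPS17A-NSE5 the *rrp6Δ* ratio was below WT as well.

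By length, convergent gaps were lower in *rtt109Δ* in each class. The 582 gaps under 200 bp had a median ratio of 1.95 in *rtt109Δ* and 2.59 in WT, and a median log2 ratio of -0.44. The 535 gaps of 200 to under 400 bp were at -0.38, the 185 gaps of 400 to under 800 bp at -0.37 and the 117 gaps of 800 bp or more at -0.26, with 1.77 in *rtt109Δ* and 2.19 in WT in the longest class. The share of gaps over 1.3-fold lower was 56.4%, 50.7%, 49.2% and 30.8% in this order. Tandem gaps of the same length classes had medians between -0.17 and -0.13 with no such order. These classes were not matched on WT ratio, and tandem gaps had median WT ratios from 1.63 to 1.79 in them. With WT ratio and length class both matched, the difference between convergent and tandem gaps was -0.036. Windows of 100 bp reach into the ORFs in the shortest gaps, 151 of which are shorter than a window.

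**Figure D5:**
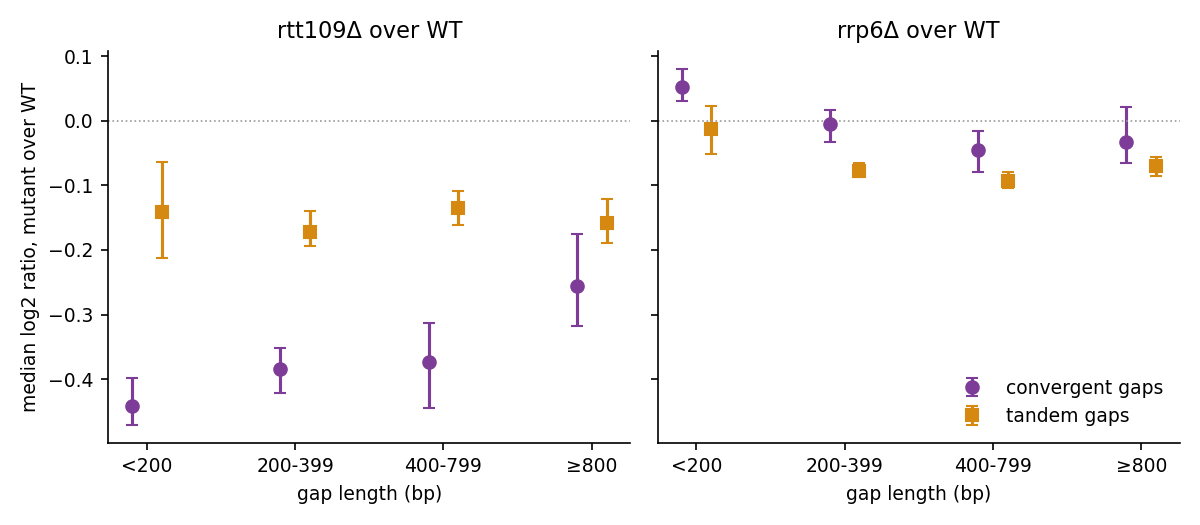
Median log2 ratio of *rtt109Δ* to WT (left) and of *rrp6Δ* to WT (right) for convergent gaps (circles) and tandem gaps (squares) in 4 classes of gap length. Bars are order-statistic 95% intervals of the median over gaps and hold no replicate error. In *rtt109Δ* the convergent medians run from -0.44 in the shortest to -0.26 in the longest class, below the tandem gaps in each class.

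The *rrp6Δ* track addressed RNAPII occupancy without the exosome nuclease. In convergent gaps the tracks were close. With the limit of 1.3-fold, 50 gaps (3.52%) were lower and 63 (4.44%) were higher in *rrp6Δ*, against 4.19% lower and 1.55% higher over all gaps. The median log2(*rrp6Δ*/WT) was 0.0065, with an order-statistic interval from -0.0078 to 0.019 and the middle 50% of gaps between -0.13 and 0.14. Its sign changed when the median over windows was used (-0.0046) or only windows wholly inside the gap (-0.011). When the tracks were divided by their median gap, 32 convergent gaps were lower and 109 higher in *rrp6Δ*.

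Set beside tandem gaps, convergent gaps had higher log2 ratios in *rrp6Δ*. Tandem gaps had a median log2 ratio of -0.078, with 119 (4.38%) lower and 21 (0.772%) higher, and divergent gaps had a median of -0.078 as well. Within the 10 groups of equal WT ratio, convergent gaps were above tandem gaps in 10 of 10, by a weighted mean of 0.10 on the log2 scale, and 30.9% of convergent gaps lay below the median tandem gap of their group. In the highest group the median was -0.0089 in convergent and -0.15 in tandem gaps. Weighted by the number of convergent gaps in each group, 4.44% of convergent and 0.705% of tandem gaps were over 1.3-fold higher. The difference is smaller than the 1.3-fold limit, and without replicates it cannot be set against the spread between libraries. It was 0.074 when length classes were matched too, and 0.065 when only the first 150 bp past each stop codon were used in both kinds of gap.

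The highest log2 ratios in *rrp6Δ* were found in the shortest gaps. In *rrp6Δ* the median log2 ratio to WT was 0.052 in gaps under 200 bp, -0.0042 in gaps of 200 to under 400 bp, -0.046 in gaps of 400 to under 800 bp and -0.032 in gaps of 800 bp or more. In the same order of length, tandem gaps had -0.013, -0.078, -0.092 and -0.069, so they too were highest in the shortest class. Of the 63 gaps over 1.3-fold higher, 50 were under 200 bp and 13 had 200 to under 400 bp. Of the 50 lower gaps, 30 were under 200 bp. Within the 582 convergent gaps under 200 bp, 8.59% were higher and 5.15% lower. Tandem gaps under 200 bp had 5.26% higher and 8.61% lower. From 200 to under 400 bp, convergent gaps had 2.43% higher and 2.99% lower, and tandem gaps 0.705% and 4.05%. Convergent gaps under 200 bp had a median of 2 windows, against 5, 9 and 22 in the longer classes. The part of this in the calls was not tested. Over the last 300 bp of the flanking ORFs the median log2 ratio was 0.056. By distance, the log2 ratio peaked in the bin centred 275 bp inside the ORF and was lower on both sides of it. Deeper in the ORF, beside convergent gaps, the median log2 ratio of windows was 0.067 at 425 bp and 0.035 at 975 bp. In the bin centred 275 bp inside the ORF, the mean ratio was 1.34 in *rrp6Δ* and 1.16 in WT beside convergent gaps, with a median log2 ratio of windows of 0.19, while in the bin 75 bp inside the ORF the median was -0.042. Beside tandem gaps the corresponding medians were 0.12 and -0.11. In *rtt109Δ* the medians beside convergent gaps were -0.080 and -0.18 in the same bins, so the bin 275 bp inside the ORF was above WT in *rrp6Δ* and below it in *rtt109Δ*.

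Among 329 gaps that met the rule for *rrp6Δ*, the largest fall was found between TSR1, a factor of small ribosomal subunit assembly, and RAD59, a recombination protein (chromosome IV, positions 343986 to 344236). Its ratio was 2.34 in *rrp6Δ*, 1.91 in *rtt109Δ* and 4.03 in WT, a log2 ratio of *rrp6Δ* to WT of -0.78. GLD1-RPC40, of which RPC40 encodes a subunit shared by RNA polymerases I and III, had 3.61 in *rrp6Δ*, 3.22 in *rtt109Δ* and 5.05 in WT (-0.48). TRX3-TUP1, a mitochondrial thioredoxin beside a general corepressor of transcription, had 2.20 in *rrp6Δ*, 1.68 in *rtt109Δ* and 3.01 in WT (-0.45). CIP1-MRPS16 had 2.18 in *rrp6Δ*, 1.59 in *rtt109Δ* and 2.91 in WT (-0.42), and LEE1-KTR6 had 3.90 in *rrp6Δ*, 2.96 in *rtt109Δ* and 5.14 in WT (-0.40). With the median over windows these gaps no longer passed the limit, at -0.26 for CIP1-MRPS16 and -0.10 for LEE1-KTR6. Each of these 5 gaps was also lower in *rtt109Δ* than in WT, where a single WT track stands under both ratios.

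The largest rise in *rrp6Δ* lay between HSL1, a kinase of the morphogenesis checkpoint, and YPF1, a membrane protease (chromosome XI, positions 253477 to 253696), with 4.19 in *rrp6Δ*, 2.05 in *rtt109Δ* and 2.87 in WT, a log2 ratio of *rrp6Δ* to WT of 0.55. STO1-DLT1 had 5.29 in *rrp6Δ*, 1.94 in *rtt109Δ* and 3.68 in WT (0.52), where STO1 encodes the large subunit of the nuclear cap-binding complex. With the median over windows its log2 ratio was 0.25, under the limit. KIN82-MSH3, a protein kinase beside a mismatch repair protein, had 5.27 in *rrp6Δ*, 2.65 in *rtt109Δ* and 3.72 in WT (0.50). LEA1-PUS1, a component of the U2 snRNP beside a pseudouridine synthase, had 3.09 in *rrp6Δ*, 1.94 in *rtt109Δ* and 2.22 in WT (0.48), and GGA1-EAF1, a clathrin adaptor beside a subunit of the NuA4 acetyltransferase complex, had 5.35 in *rrp6Δ*, 2.83 in *rtt109Δ* and 3.92 in WT (0.45). These 5 gaps, picked by a high ratio of *rrp6Δ* to WT, were highest in *rrp6Δ* and lowest in *rtt109Δ*, with WT in between.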

How the data were processed

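RNAPII ChIP-seq tracks of *rtt109Δ*, *rrp6Δ* and WT were used, each pooling 2 IP libraries over 1 input. The authors deposited the values as a ratio of IP to input per window of 100 bp, and each track appears to have been scaled to its median window, which hides any difference that all windows share. The submitters' processing notes name FastQC, Bowtie2, SAMtools, deepTools and bedtools and the build sacCer3, without roles. Filters and the way replicates were combined are not given in the sources used here. Cutting by micrococcal nuclease depends on chromatin and base composition, and no genome sequence was used here, so no correction for it was made and no sequences are shown.

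ORF positions came from RefSeq (R64, the same assembly as sacCer3), with 6002 nuclear ORFs, and strands from systematic names. Coordinates are counted from 1. Windows with their centre in a gap were averaged, without pseudocount or filter on low values, and log2 ratios were taken from these means. The call limit was 1.3-fold, after the study, without p-values. Intervals of medians are order-statistic (binomial) 95% intervals over gaps. Depth is unknown, so no counting error was derived.

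The rule for named gaps took the 5 highest and the 5 lowest in WT and, for each mutant, the 5 largest falls and rises, all with at least 4 windows, plus, with any number of windows, the 2 highest and the 2 lowest *rtt109Δ* log2 ratios beside ribosomal protein genes. Members and lists were chosen with earlier results of these data known. The rule did not ask for windows over the whole gap, and missing windows left some named gaps read in part. Among them were MRPL23-RPB2 (6 windows in 506 bp) and FIT2-FIT3 (6 windows in 448 bp). The windows of BLI1-FBA1 ended at position 326350 (gap to 326407) and those of AHP1-CCW12 at 369600 (gap to 369696). Alternatives covered scaling, the windows used, low values, pseudocount, background and the gaps included. Scripts were tested on simulated data. The scripts ran under Python 3.11.15 with pandas 2.3.3, numpy 2.4.6 and scipy 1.17.1, and plots were drawn with matplotlib 3.10.9.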

Additional observations from a re-analysis of the deposited data

How the results depend on the processing

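No paired analysis was possible because the 2 IP libraries of a genotype were merged into 1 track before deposit, and leaving out a library was not possible either. Of 308 values recomputed under an alternative, 2 changed sign and 65 others, all of them medians or counts over many gaps, left the interval of the reported median or 1.5 times the reported count. The cause was not tested beyond what each setting does by construction. The alternatives with only the first 150 bp past each stop codon and without gaps beside ribosomal protein genes were chosen after seeing the data. Of 22 named gaps past the 1.3-fold limit in a mutant, 8 fell under it in at least 1 alternative: RPL3-YNG1, UTH1-SHB17, AHP1-CCW12, CIP1-MRPS16, LEE1-KTR6 and STO1-DLT1, with values given above, TRX3-TUP1 at -0.376 with the pseudocount, and RPS17A-NSE5 at -0.37 with tracks divided by their median gap. HIP1-TDH3 passed it at 0.43 with the mean and 0.52 with the median gap. With the median gap CIP1-MRPS16 was at -0.36 and LEE1-KTR6 at -0.34, and with the pseudocount they were at -0.35 and -0.36. No named gap changed sign.

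For *rtt109Δ* against WT, the median of -0.39 became -0.30 with tracks divided by their mean, -0.21 with tracks divided by their median gap, -0.12 with the WT distribution imposed by rank, -0.37 with the median over windows, -0.44 in gaps at or above the median WT gap, -0.31 with a pseudocount of 0.5 and -0.60 with the 10th percentile of windows subtracted. The 726 lower gaps became 411 with the median gap, 311 by rank and 374 at a limit of 1.5-fold. The 24 higher gaps became 41 with the mean, 74 with the median gap, 157 by rank, 39 with the median over windows, 15 with at least 3 windows, 7 at or above the median gap, 12 with the pseudocount, 15 with symbols for both ORFs and 4 at 1.5-fold. The matched difference from tandem gaps of -0.029 was -0.24 without matching and -0.057 in the first 150 bp, and it stayed below 0 throughout. By length, division by the mean gave -0.35, -0.29, -0.28 and -0.16 from the shortest to the longest class, windows wholly inside gave -0.48 in the shortest class, and the median over windows gave -0.33 in the class from 200 bp.

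For *rrp6Δ* against WT, the median of 0.0065 became 0.067 with the median gap, 0.032 by rank, 0.038 with background subtracted, -0.0046 with the median over windows and -0.011 with windows wholly inside the gap. The 50 lower gaps became 32 with the median gap, 84 with the median over windows, 23 with at least 3 windows, 23 with the pseudocount, 92 with background subtracted and 6 at 1.5-fold. The 63 higher gaps became 109 with the median gap, 27 with at least 3 windows, 36 with the pseudocount, 156 with background subtracted and 9 at 1.5-fold. The matched difference of 0.10 was 0.12 with the median over windows, 0.073 inside the gap, 0.088 with at least 3 windows, 0.086 with the pseudocount, 0.13 with background subtracted, 0.072 when matched on *rtt109Δ*, 0.084 unmatched, 0.074 when length was matched too and 0.065 in the first 150 bp.

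The log2 ratio of gap to gene ends in *rtt109Δ* was 0.91 with windows wholly inside the gap, 0.91 at or above the median gap, 0.61 with the pseudocount, 1.45 with background subtracted and 0.89 with the last 500 bp of the ORFs. In the same order it was 1.10, 1.10, 0.77, 1.42 and 1.06 in *rrp6Δ*, and 1.17, 1.15, 0.81, 1.56 and 1.14 in WT, so that with background subtracted the step in *rtt109Δ* was no longer the smallest.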

Other observations

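Noncoding genes lie in 62 of the 1419 convergent gaps. The 42 gaps with a tRNA gene had a median ratio of 1.91 in *rtt109Δ*, 2.28 in *rrp6Δ* and 2.29 in WT, and a median log2 ratio of *rtt109Δ* to WT of -0.27, with 9 gaps (21.4%) over 1.3-fold lower and none higher. The 14 gaps with a snoRNA gene had 1.81 in *rtt109Δ*, 1.79 in *rrp6Δ* and 1.90 in WT, a median log2 ratio of 0.027, and no gap was past the limit in either direction. Gaps without a noncoding gene had a median of -0.40, and 52.8% of these 1357 gaps were lower. The gap between TAR1 and YLR154C-G, which holds ribosomal RNA genes of the repeated ribosomal DNA on chromosome XII, stood apart with 2.65 in *rtt109Δ*, 1.17 in *rrp6Δ* and 1.04 in WT, a log2 ratio of *rtt109Δ* to WT of 1.34. Its sequence is repeated, so its value is uncertain. A pair of gaps of 21 bp nearby, each annotated within a ribosomal RNA gene and read from a single window, had log2 ratios of 1.19 and 1.52.

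Split by chromosome, convergent gaps had a median log2(*rtt109Δ*/WT) of -0.096 on chromosome I (20 gaps, order-statistic interval from -0.26 to 0.22) and of -0.46 to -0.29 on the 14 others. Tandem gaps were also highest on chromosome I, with a median of 0.14, against -0.21 to -0.049 on the others. On chromosome I, 4 gaps were over 1.3-fold lower and 3 were higher, with a median ratio of 2.57 in *rtt109Δ* and 2.49 in WT. Within 20 kb of a chromosome end, 49 convergent gaps had a median log2 ratio of -0.35, against -0.39 in the 1370 others. The lowest log2 ratio of *rtt109Δ* to WT among all convergent gaps, -1.77, came from the gap between FMP10 and FAU1, which has 74 bp and a single window, with 1.27 in *rtt109Δ* and 4.31 in WT. The gap with the highest WT ratio of all lay between GPM2 and RPN4 and had 2 windows, with 5.96 in *rtt109Δ*, 8.34 in *rrp6Δ* and 11.3 in WT. These extremes fall outside the rule for named gaps and were picked after their values were seen.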
